A study of Homo sapiens with 15 samples.

Results

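CQWIN and CQSUM are the codes of a pair of fine particulate matter (PM2.5) preparations, and their effects on A549 cells were compared with 3 RNA sequencing libraries each. These 6 libraries were taken by title from 15 libraries in 5 groups of 3. A549 is an established human lung adenocarcinoma line, labelled as alveolar type II epithelium. CQSUM cells received CQSUM-PM2.5 and CQWIN cells CQWIN-PM2.5, each at 100 µg/mL for 24 h. Control cells (DMSO) received an equal volume of dimethyl sulfoxide, and the remaining groups received CDSUM-PM2.5 or CDWIN-PM2.5 at the same dose and time. No source explains the codes CQ, CD, SUM and WIN. It is also not stated whether libraries of 1 group are separate cultures. The p-values below set differences between groups only against how libraries spread within groups, estimated over all 15 libraries unless stated otherwise. This spread may be technical.

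PM2.5 carries metals and polycyclic aromatic hydrocarbons. The hydrocarbons can activate the aryl hydrocarbon receptor, a ligand-driven transcription factor that turns on CYP1A1 and CYP1B1. Oxidants turn on genes of the NRF2 programme, and lung epithelium can answer particles with cytokines. Cells adjust sterol and unsaturated fatty acid synthesis through the SREBP transcription factors, which leave the endoplasmic reticulum when sterols are low. Bone morphogenetic protein (BMP) signals induce the ID genes, whose proteins keep basic helix-loop-helix factors from binding DNA.

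The CQ libraries held 17583532 to 19216323 reads, and 15565 of 58735 genes had enough reads to be tested. Libraries of 1 group were about as far apart as libraries of different groups. The root mean square log2 difference between libraries was 0.458 to 0.635 within CQSUM, 0.591 to 0.827 within CQWIN and 0.456 to 0.811 between the groups. CQWIN 1 and CQWIN 3 were the pair farthest apart, and they also differed in how counts depended on transcript length. The slope per doubling of length was −0.124 log2 units in CQWIN 1, 0.047 in CQWIN 2 and 0.224 in CQWIN 3, against −0.118 to 0.065 in CQSUM. No pair of libraries agreed within sampling noise, since the chi-square per degree of freedom over genes was at least 9.14. Levels are given in CPM, reads scaled to a common library size. Of 14 alveolar type II markers, 5 passed the filter, among them ABCA3 and LPCAT1, and none of the listed surfactant protein genes did. The summed level of the type II list was 117 to 158 CPM in CQSUM and 125 to 229 CPM in CQWIN. Of 15 leukocyte markers, 4 passed and 5 had no read in any library, with sums of 8.69 to 10.7 CPM in CQSUM and 10.2 to 18.5 CPM in CQWIN. Of 14 fibroblast and endothelial markers, 3 passed, with sums of 7.64 to 12.2 and 9.12 to 11.9 CPM.

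**Figure D1:**
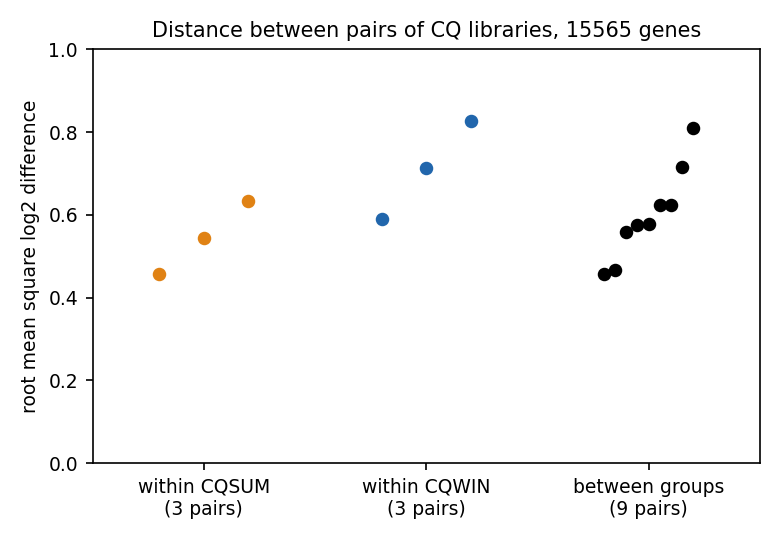
Each point is 1 pair of CQ libraries, and the vertical axis is the root mean square log2 difference over the 15565 genes tested. Pairs between groups span 0.456 to 0.811, and pairs within CQWIN span 0.591 to 0.827.

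The fatty acid desaturase genes SCD and FADS1 rose in CQWIN relative to CQSUM, and the BMP-responsive gene ID3 fell. These 3 genes (0.0193% of those tested) were called, meaning that edgeR's quasi-likelihood test gave a Benjamini-Hochberg adjusted p below 0.05. At an unadjusted p below 0.05 there were 597 genes (3.84%), 373 higher and 224 lower in CQWIN. DESeq2 called 11 genes, these 3 among them. The median log2 fold change of all genes was 0.02.

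SCD (chr10:100347124-100364834, plus strand, GRCh38) encodes stearoyl-CoA desaturase, which makes monounsaturated fatty acids. It was at 360.2, 285 and 353 CPM in CQSUM libraries 1 to 3 and at 760.1, 683 and 997 CPM in CQWIN libraries 1 to 3. Every CQWIN library stood above every CQSUM library. The level was 2.44-fold higher (log2 1.29 ± 0.17 SE, 95% interval 0.94 to 1.64, n = 3 and 3, edgeR adjusted p = 0.00585). Bulk levels of this kind cannot tell apart more cells with a transcript and more transcript per cell.

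FADS1 (chr11:61799625-61829318, minus strand) encodes a desaturase of polyunsaturated fatty acids. It was at 242, 229 and 254 CPM in CQSUM and 450.2, 395 and 486 CPM in CQWIN, again without overlap. The level was 1.83-fold higher (log2 0.87 ± 0.14 SE, n = 3 and 3, edgeR adjusted p = 0.0454). FADS1 overlaps FADS2 on the opposite strand, and since strand use in counting is not given, their reads may be shared. FADS2, the partner desaturase, was at 238, 220.0 and 213 CPM in CQSUM and 335, 344 and 518 CPM in CQWIN. All CQWIN libraries of FADS2 were above all CQSUM libraries, but the difference of 0.84 ± 0.18 (log2, SE) was not called (edgeR adjusted p = 0.266). FADS2 was called by DESeq2 (adjusted p = 0.0383), and by edgeR with trends in GC content and length removed (0.00781) or with no filter on low counts (0.00737). The fit with no filter also called genes set apart by only 1 or 2 libraries, such as FCGBP, given below.

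ID3 (chr1:23557918-23559794, minus strand) was at 415, 482 and 419.7 CPM in CQSUM and 216, 229.6 and 142 CPM in CQWIN. The groups did not overlap, and CQWIN 3 was the lowest library. The level was 2.24-fold lower (log2 −1.16 ± 0.18 SE, n = 3 and 3, edgeR adjusted p = 0.0227).

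Leaving out 1 library removed some of these calls, while the size of the differences moved little. SCD was not called without CQSUM 2 (edgeR adjusted p = 0.0883) or CQSUM 3 (0.0601). ID3 was not called without CQSUM 1 (0.0732), CQSUM 2 (0.167) or CQSUM 3 (0.111). FADS1 was not called without CQSUM 1 (0.258), CQSUM 2 (0.525), CQSUM 3 (0.226), CQWIN 1 (0.0574) or CQWIN 3 (0.141). Across the fits with 1 CQ library left out, the log2 fold change was 1.10 to 1.35 for SCD, 0.79 to 0.91 for FADS1 and −1.35 to −0.98 for ID3. A fit of the 6 CQ libraries alone called no gene, and the edgeR adjusted p there was 0.9997 for each of SCD, FADS1 and ID3. In that fit 296 of 14670 genes had an unadjusted p below 0.05. With DESeq2's size factors FADS1 and ID3 missed the threshold (0.0513 each). In the authors' deposited table the same 3 genes have an adjusted p below 0.05, with log2 fold changes of 1.26 for SCD, 0.85 for FADS1 and −1.18 for ID3.

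**Figure D2:**
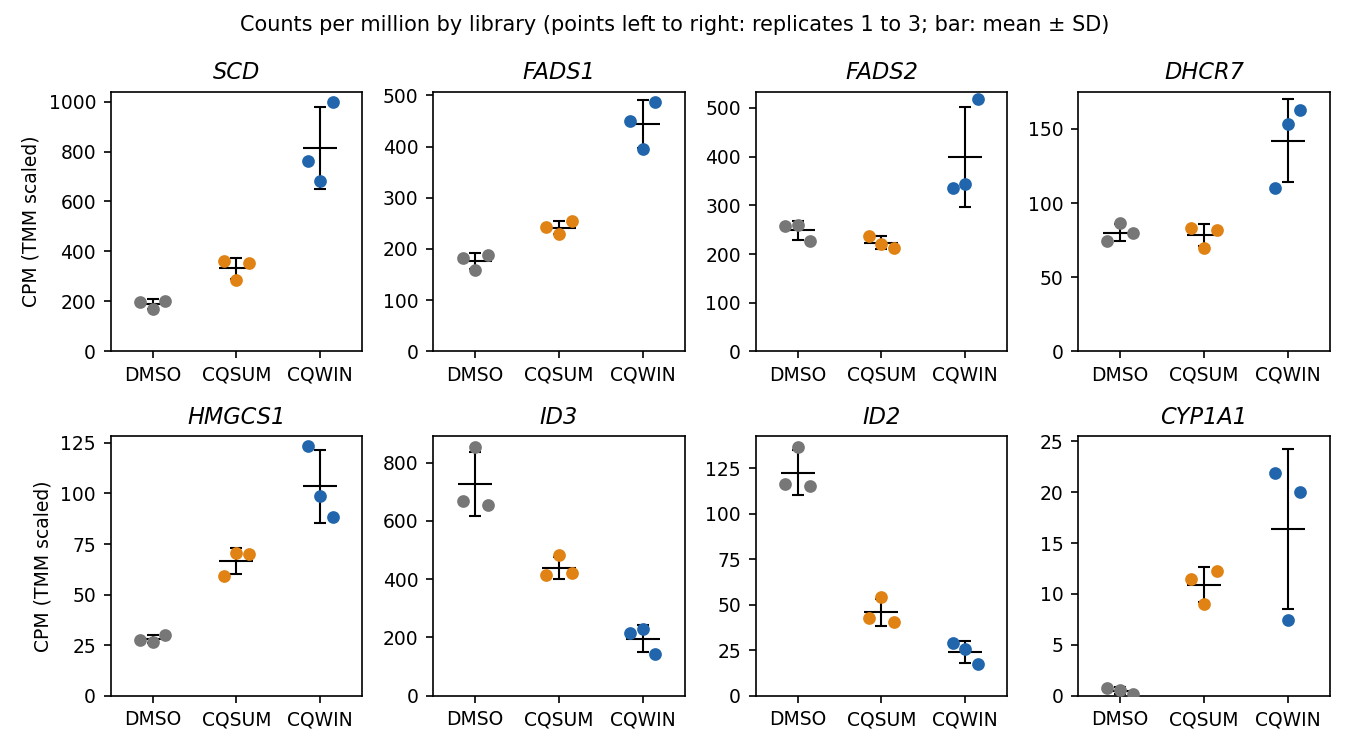
CPM per library (vertical axis, from 0) of 8 genes in DMSO, CQSUM and CQWIN, with bars for mean ± SD of 3 libraries. SCD, FADS1, FADS2, DHCR7 and HMGCS1 are higher in every CQWIN than in every CQSUM library, ID3 and ID2 are lower, and CYP1A1 overlaps.

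**Figure D3:**
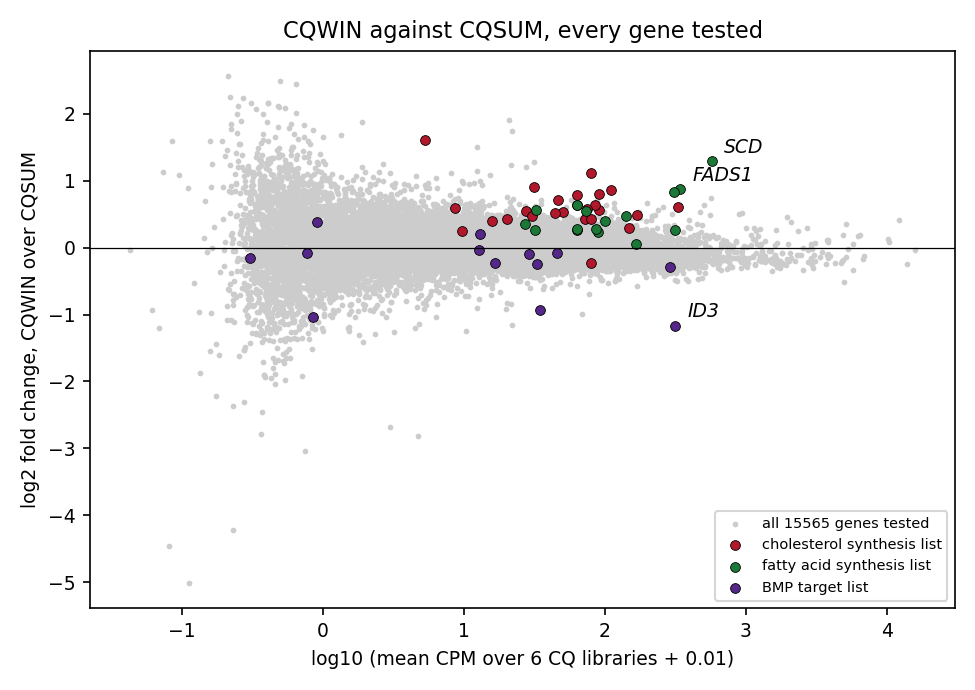
Each point is a gene, with the log10 of mean CPM plus 0.01 on the horizontal axis and the log2 fold change of CQWIN over CQSUM on the vertical axis. SCD (1.29) and FADS1 (0.87) lie above 0 with most members of the lipid synthesis lists, and ID3 lies at −1.16.

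The promoters of SCD and of 4 sterol genes are shown as examples, picked from the larger number of list members higher in CQWIN. FADS1, also called higher, is not among them. SREBP-driven promoters commonly pair sterol elements with CCAAT boxes, which the factor NF-Y binds. The stretches are from RefSeq on GRCh38.p14, 5′ to 3′ on the gene's strand, and end before the first base of any GENCODE 29 exon. HMGCS1 had 2 RefSeq windows and IDI1 had 3, and the window with the longest such stretch is shown. Capitals mark CCAAT or its reverse complement ATTGG.
SCD: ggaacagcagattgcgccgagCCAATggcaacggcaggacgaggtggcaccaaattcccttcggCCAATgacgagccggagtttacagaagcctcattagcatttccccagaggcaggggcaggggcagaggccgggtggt
INSIG1: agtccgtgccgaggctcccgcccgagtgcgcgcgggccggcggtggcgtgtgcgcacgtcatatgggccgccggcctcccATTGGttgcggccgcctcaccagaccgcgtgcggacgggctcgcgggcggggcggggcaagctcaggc
HMGCS1: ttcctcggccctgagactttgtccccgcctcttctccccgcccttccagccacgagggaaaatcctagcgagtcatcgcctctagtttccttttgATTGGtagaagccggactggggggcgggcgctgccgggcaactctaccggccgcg
IDI1: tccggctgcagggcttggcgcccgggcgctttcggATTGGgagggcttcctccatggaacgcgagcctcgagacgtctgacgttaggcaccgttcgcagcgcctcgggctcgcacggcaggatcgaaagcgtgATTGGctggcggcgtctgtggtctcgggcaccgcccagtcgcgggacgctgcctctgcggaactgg
MSMO1: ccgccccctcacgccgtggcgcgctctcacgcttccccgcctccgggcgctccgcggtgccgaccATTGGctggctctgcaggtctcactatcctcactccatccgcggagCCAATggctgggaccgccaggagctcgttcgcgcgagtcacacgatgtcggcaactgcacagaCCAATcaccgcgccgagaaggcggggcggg
They lie at chr10:100346983-100347123 (plus strand) for SCD, chr7:155297628-155297775 (plus) for INSIG1, chr5:43313513-43313662 (minus) for HMGCS1, chr10:1049171-1049369 (minus) for IDI1 and chr4:165327419-165327622 (plus) for MSMO1. The SCD matches begin 120 and 77 bases before the end of the stretch. In whole RefSeq windows, from 250 bases before to 50 after the start, 16 of the 18 cholesterol list genes that had a window, out of 25 listed, held CCAAT on either strand. The count was 11 of 16 for the fatty acid list and 6 of 11 for the BMP target list, most of whose members were not higher in CQWIN. The share was 39.7% of all 27305 genes with a window and 42.65% of the 10782 tested genes with one. A match is a description of letters and not a bound site. Sterol elements were not searched for, and a role of SREBP or NF-Y in these differences was not tested.

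Nearly every gene of the cholesterol pathway was higher in CQWIN, although edgeR called none of them in the fit that called SCD, FADS1 and ID3 above. With GC and length trends removed it called 2 of them. All 25 listed genes were tested, and in 19 of them all 3 CQWIN libraries were above all 3 CQSUM libraries. None was below in this way. Over all genes tested, 637 (4.09%) were above and 479 (3.08%) below. The list's median log2 fold change was 0.57, against 0.02 for all genes, and it was 0.55 with trends in GC content and length removed. At an unadjusted p below 0.05 there were 21 members, all higher. The summed level of the list, without TMM factors, ran from 1465 to 1525 CPM in CQSUM and from 2205 to 2373 CPM in CQWIN.

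The early steps make mevalonate and isoprenoids. HMGCS1, which condenses acetoacetyl-CoA with acetyl-CoA, was at 58.95, 70.3 and 69.8 CPM in CQSUM and 123, 98.7 and 88.5 CPM in CQWIN. Its difference was 0.64 ± 0.18 (log2, SE), with an edgeR adjusted p of 0.994. IDI1, the isomerase of isoprenoid units, was at 41.6, 49.6 and 49.1 CPM against 105, 72.8 and 64.9 CPM. MVK and MVD, a kinase and a decarboxylase of the mevalonate pathway, stood at 0.55 ± 0.17 and 0.53 ± 0.19 without overlap, where MVK shares its locus with MMAB on the other strand. FDPS, which joins isoprenoid units, overlapped between groups at 0.49 ± 0.16. PMVK, the kinase of phosphomevalonate, was the only member of the list below 0, at −0.23 ± 0.18, and its libraries overlapped.

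The later steps build the sterol. FDFT1, which makes squalene, was at 248, 292 and 253 CPM in CQSUM and 509, 397 and 302 CPM in CQWIN. SQLE, which oxidises squalene, was at 73.9, 74.4 and 72.2 CPM against 107, 115 and 105 CPM, and LSS, which closes the rings, at 35.3, 36.8 and 34.3 CPM against 48.6, 52.02 and 72.96 CPM. These 3 genes did not overlap between groups. MSMO1, a sterol demethylation enzyme, was at 59.6, 74.2 and 64.6 CPM against 154, 98.9 and 91.6 CPM, with CQWIN 1 the highest library. With no filter on low counts, edgeR called MSMO1 (adjusted p = 0.0107) and IDI1 (0.0130). DHCR7, a reductase of the last steps, was at 83.3, 69.8 and 81.6 CPM against 111, 153 and 163 CPM, a log2 difference of 0.86 ± 0.16 (edgeR adjusted p = 0.106). DHCR7 was called by DESeq2 (adjusted p = 0.00997), and by edgeR with GC and length trends removed (0.00799), with no filter on low counts (0.00219) or without CQWIN 1 (0.0167). Its level was higher in every CQWIN than in every CQSUM library, with CQWIN 3 the highest. NSDHL, TM7SF2 and HSD17B7, enzymes of sterol demethylation and reduction, stood at 0.43 ± 0.14, 0.47 ± 0.18 and 0.43 ± 0.18 without overlap. The remaining members that overlapped were CYP51A1 at 0.25 ± 0.24, EBP at 0.29 ± 0.17, SC5D at 0.40 ± 0.25 and ACAT2 at 0.43 ± 0.16.

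Control genes of the pathway were also higher in CQWIN, without a call in the fit of all libraries. INSIG1, which holds SREBPs in the endoplasmic reticulum, was at 50.03, 49.8 and 48.8 CPM in CQSUM and 76.7, 75.2 and 78.3 CPM in CQWIN, with little spread within either group. SREBF2, which encodes the SREBP of sterol genes, stood at 0.58 ± 0.19, and SREBF1, that of lipogenic genes, at 0.40 ± 0.16 (log2, SE). STARD4, a sterol carrier, stood at 0.59 ± 0.23. All 3 were higher in every CQWIN library. Several of these genes overlap another on the opposite strand and may share its reads: SREBF1 with RAI1, ACAT2 with TCP1 and DHCR7 with AP002387.1. TM7SF2 overlaps VPS51 on its own strand.

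**Figure D4:**
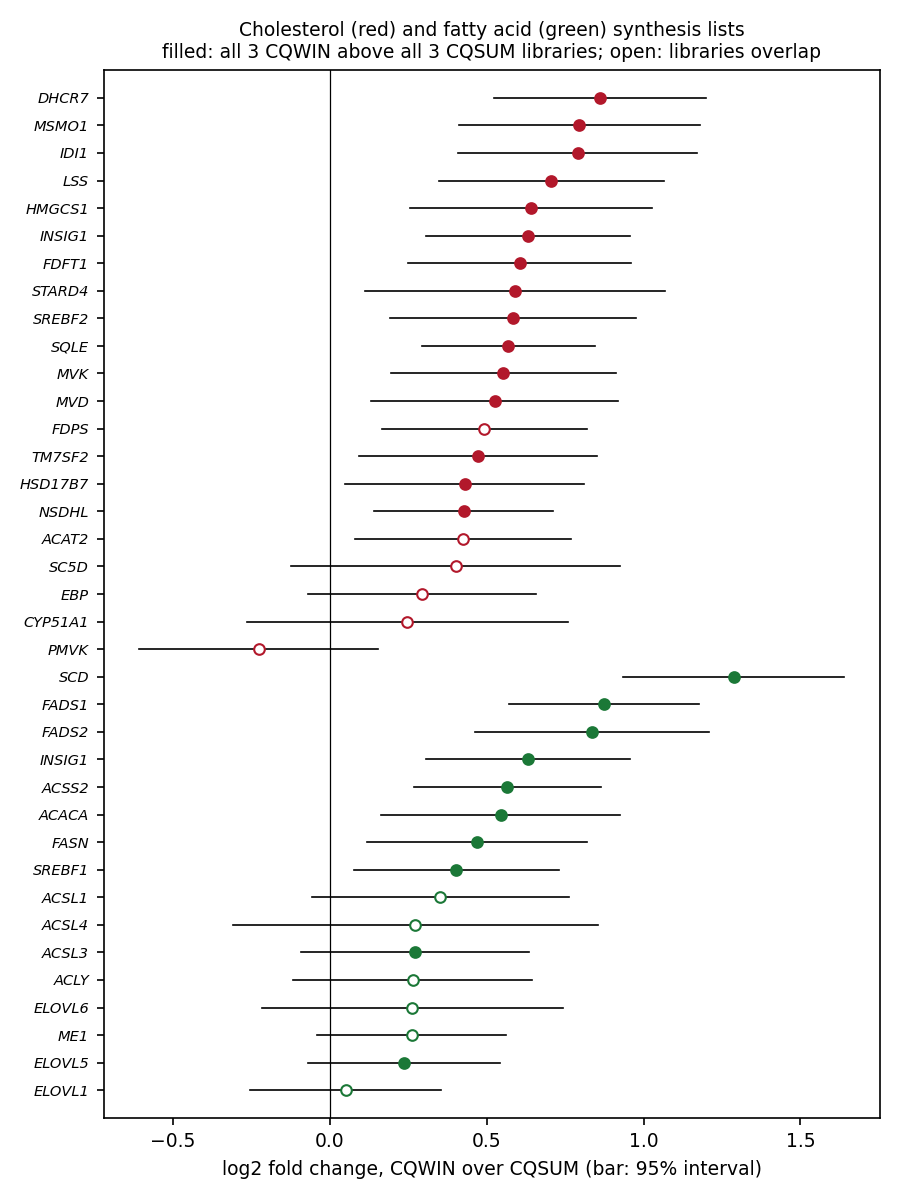
Log2 fold change of CQWIN over CQSUM (horizontal axis) with its 95% interval for 21 cholesterol and 16 fatty acid list members. Filled points mark the genes whose CQWIN libraries are all above the CQSUM libraries, and of the genes plotted PMVK alone lies below 0.

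The fatty acid synthesis list held SCD and FADS1, so 2 of its 16 tested members were called. All 16 differences were above 0, with a median of 0.38, or 0.34 with GC and length trends removed. In 10 members all CQWIN libraries were above all CQSUM libraries, and 8 had an unadjusted p below 0.05, against 4.09% and 3.84% of all genes tested. The summed level of the list, without TMM factors, was 1652 to 2122 CPM in CQSUM and 2658 to 4214 CPM in CQWIN. ACACA, which makes malonyl-CoA, was at 64.3, 50.7 and 64.2 CPM against 74.4, 76.6 and 111 CPM. FASN, which builds palmitate from it, was at 116, 110.3 and 128 CPM against 165, 139.6 and 185 CPM. ACSS2, which activates acetate, was at 26.8, 26.2 and 26.1 CPM against 40.7, 34.7 and 41.7 CPM. None of these 3 overlapped between groups, and none was called. ELOVL5, an elongase, and ACSL3, a fatty acid activating enzyme, stood at 0.24 ± 0.15 and 0.27 ± 0.17 without overlap. ACLY, which splits citrate to acetyl-CoA, and ELOVL6, another elongase, overlapped at 0.26 ± 0.18 and 0.26 ± 0.23.

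Lipid storage and oxidation genes were mixed. Of 15 tested, 4 (PLIN2, CIDEC and HADHA among them) had all CQWIN libraries above, against 4.09% of all genes, and the list's median was 0.06. PLIN2, which coats lipid droplets, was at 96.1, 81.99 and 98.7 CPM in CQSUM and 188, 103 and 128 CPM in CQWIN and was not called.

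Both CQ groups were also compared with the same 3 DMSO libraries. CQSUM differed from DMSO in 5061 genes (32.5%), 2136 higher and 2925 lower, and CQWIN in 4264 (27.4%), 1804 higher and 2460 lower. The split between higher and lower depended on the scaling and on single libraries. DESeq2's size factors gave 2635 higher and 2406 lower in CQSUM, and 2176 higher and 2108 lower in CQWIN. The CQWIN split was 3866 higher and 2236 lower without CQWIN 3, and 2204 higher and 1246 lower without CQWIN 2. Calls fell to 3049 in CQSUM without CQSUM 2 and 3201 without DMSO 1, and in CQWIN to 2511 without CQWIN 1 and 2657 without DMSO 1. The slope of counts with GC content was 0.162 to 0.348 log2 units per 10 percentage points in DMSO and −0.206 to −0.0957 in CQ. With GC and length trends removed the calls numbered 2598 (1375 higher) in CQSUM and 2371 (1258 higher) in CQWIN.

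SCD was at 197, 169 and 203 CPM in DMSO, so all CQSUM libraries lay above it and all CQWIN libraries higher still. Its log2 fold change over DMSO was 0.81 ± 0.17 in CQSUM (edgeR adjusted p = 0.00181) and 2.10 ± 0.17 in CQWIN (edgeR adjusted p = 5.46e-07). FADS1 stood at 0.46 ± 0.14 and 1.33 ± 0.15, both called. FADS2 was not called in CQSUM (−0.15 ± 0.18) and rose in CQWIN (0.68 ± 0.18). FASN fell against DMSO in both, at −0.93 ± 0.17 in CQSUM and −0.47 ± 0.17 in CQWIN.

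Of the cholesterol list, 15 members rose in CQSUM and 23 in CQWIN over DMSO, and none fell, while 2136 and 1804 of all 15565 genes rose. The median log2 fold change over DMSO was 0.56 in CQSUM and 1.16 in CQWIN. INSIG1 was at 8.50, 8.18 and 9.51 CPM in DMSO, and its level was 5.67-fold higher in CQSUM and 8.79-fold higher in CQWIN, both called. HMGCS1 stood at 1.24 ± 0.19 and 1.88 ± 0.19, and MSMO1 at 1.62 ± 0.19 and 2.42 ± 0.19, all called. DHCR7 was not called in CQSUM (−0.03 ± 0.16) and rose in CQWIN (0.83 ± 0.16).

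Among 13 tested BMP-responsive genes, edgeR called ID3 alone between CQWIN and CQSUM with all libraries, the filter on low counts and trends left in. ID2 was at 42.9, 54.2 and 40.5 CPM in CQSUM and 28.8, 25.9 and 17.4 CPM in CQWIN, without overlap. Its difference was −0.93 ± 0.17 (log2, SE, edgeR adjusted p = 0.104). ID2 was called by DESeq2 (adjusted p = 0.00384), and by edgeR with GC and length trends removed (0.0118), with no filter on low counts (0.000786) or without CQWIN 1 (0.0289). ID1 was at 321, 334 and 299 CPM against 353, 219.6 and 205 CPM and overlapped, with CQWIN 1 the highest library. ID4 was at 1.37, 1.48 and 0.565 CPM against 0.452, 0.608 and 0.572 CPM, so few reads lay behind it. The list's median was −0.16, and ID2 and ID3 were its 2 members with all CQWIN libraries below, against 3.08% of all genes. Against DMSO, 11 members fell in CQSUM and 10 in CQWIN, where 2925 and 2460 of all 15565 genes fell, and 1 member rose in each. ID3 stood at −0.73 ± 0.17 in CQSUM and −1.89 ± 0.18 in CQWIN, and ID2 at −1.42 ± 0.17 and −2.35 ± 0.17.

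Outside these lists, LIMD2 and LYNX1 did not overlap between groups. Both were called by DESeq2 but not by edgeR with the filter on low counts and trends left in. With no such filter edgeR called both (adjusted p = 0.0488 and 0.0376), and with trends removed and a replicate block it called LIMD2 (0.0454). LIMD2, named after its values were seen, was at 25.4, 28.2 and 24.1 CPM in CQSUM and 15.4, 14.3 and 14.1 CPM in CQWIN (log2 −0.83 ± 0.17 SE, edgeR adjusted p = 0.210). It overlaps MAP3K3 on the opposite strand. LYNX1, a modulator of nicotinic acetylcholine receptors named in the same way, was at 7.66, 7.99 and 8.48 CPM against 17.7, 14.8 and 14.5 CPM (log2 0.96 ± 0.21 SE, edgeR adjusted p = 0.266).

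Genes commonly read as marks of particle exposure, described next, were not called between CQWIN and CQSUM. CYP1A1, which oxidises polycyclic aromatic hydrocarbons, was at 11.5, 8.998 and 12.3 CPM in CQSUM and 21.8, 7.39 and 20.02 CPM in CQWIN. CQWIN 1 and CQWIN 3 were above all CQSUM libraries and CQWIN 2 was below them. The difference was 0.59 ± 0.34 (log2, SE), with a 95% interval of −0.13 to 1.30 (edgeR adjusted p = 0.994). CYP1B1, a related oxidase, was at 106, 79.98 and 101 CPM against 102, 85.1 and 191 CPM, where CQWIN 3 stood alone. Its difference of 0.40 ± 0.22 was −0.05 without CQWIN 3. AHRR, the receptor's repressor, likewise went from 0.40 ± 0.36 to −0.18. TIPARP, another feedback repressor, stood at 0.20 ± 0.18. Against DMSO, CYP1A1 rose in both groups, at 4.46 ± 0.45 in CQSUM and 5.05 ± 0.45 in CQWIN. Of 11 receptor targets tested, 1, CYP2S1, had all CQWIN libraries above, against 4.09% of all genes, and the median was 0.29.

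Of 25 NRF2 targets, 2 (GCLC and ABCC2) had all CQWIN libraries above, against 4.09% of all genes, with a median of 0.12. NQO1, a quinone reductase, was at 3188, 4373 and 3488 CPM in CQSUM and 6049, 3052 and 2864 CPM in CQWIN. CQWIN 1 was its highest library, and its difference of 0.12 ± 0.23 was −0.32 without it. HMOX1, which degrades haem, stood at −0.14 ± 0.14. The p53 target CDKN1A, a cell cycle inhibitor, stood at −0.0065 ± 0.15, and DDIT3, a stress transcription factor, at −0.16 ± 0.30. Of 24 p53 targets, 3 (BBC3, GADD45A and GADD45B) had all CQWIN libraries below, against 3.08% of all genes. None was called, but GADD45B was with no filter on low counts (edgeR adjusted p = 0.0241).

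With all libraries and the filter on low counts, no gene of the cytokine and immediate early lists was called, and their members without overlap were all lower in CQWIN. Of 23 cytokine genes tested, 4 had all CQWIN libraries below, against 3.08% of all genes, and the median was −0.16. CCL2, a monocyte chemoattractant, was at 75.04, 101 and 97.7 CPM in CQSUM and 71.8, 62.1 and 59.1 CPM in CQWIN (log2 −0.50 ± 0.14 SE, edgeR adjusted p = 0.994). CSF2, a myeloid growth factor, was at 5.27, 8.11 and 7.09 CPM against 2.93, 5.01 and 3.86 CPM, and IL32 and IL11 were the other members below. IL11 was called with no filter on low counts (edgeR adjusted p = 0.00835) and without CQWIN 2 (0.0104). CXCL8, a neutrophil chemoattractant, overlapped at −0.23 ± 0.24, as did IL6 at −0.16 ± 0.33 and IL1B at 0.18 ± 0.34. Of 18 immediate early genes, 4 (JUNB, FOSB, NR4A1 and IER3) were below, against the same 3.08%, with a median of −0.17. JUNB, an AP-1 subunit, was at 137, 119 and 121 CPM against 92.1, 92.99 and 76.1 CPM, and NR4A1, an orphan nuclear receptor, at 13.7, 11.01 and 13.2 CPM against 8.75, 5.47 and 8.82 CPM.

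Among metallothioneins, which bind zinc and copper, none was called. MT1X was at 13.3, 13.6 and 13.1 CPM in CQSUM and 8.24, 9.47 and 6.48 CPM in CQWIN, and MT1A at 10.6, 11.9 and 12.2 CPM against 7.34, 7.80 and 7.10 CPM. Both were lower in every CQWIN library, but near-identical family members may share reads. MT2A was at 435, 514 and 417 CPM against 287, 429.9 and 248 CPM, where CQWIN 2 lay inside the CQSUM range. Of the 6 list members tested, MT1X and MT1A were the 2 below, against 3.08% of all genes, and the median was −0.37 (−0.24 with GC and length trends removed).

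Of 15 RNAs of the mitochondrial genome, 13 had a difference above 0 and none was called. MT-ND5, a subunit of respiratory complex I, was at 420.4, 335 and 526 CPM in CQSUM and 372, 652 and 1109 CPM in CQWIN, so CQWIN 1 lay within the CQSUM range, and CQWIN 2 and CQWIN 3 above it. In 2 members, MT-ATP8 and MT-CO2, all CQWIN libraries were above, against 4.09% of all genes. The length slope was also highest in CQWIN 3. The list's median was 0.37 and became 0.49 with GC and length trends removed, and the difference of MT-ND5 went from 0.74 to 0.83. All 34 ribosomal protein genes lay below 0, with a median of −0.19, where all genes tested had a median of 0.02 and a lower quartile of −0.14. All 34 overlapped between groups, while 4.09% of all genes were above and 3.08% below without overlap.

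**Figure D5:**
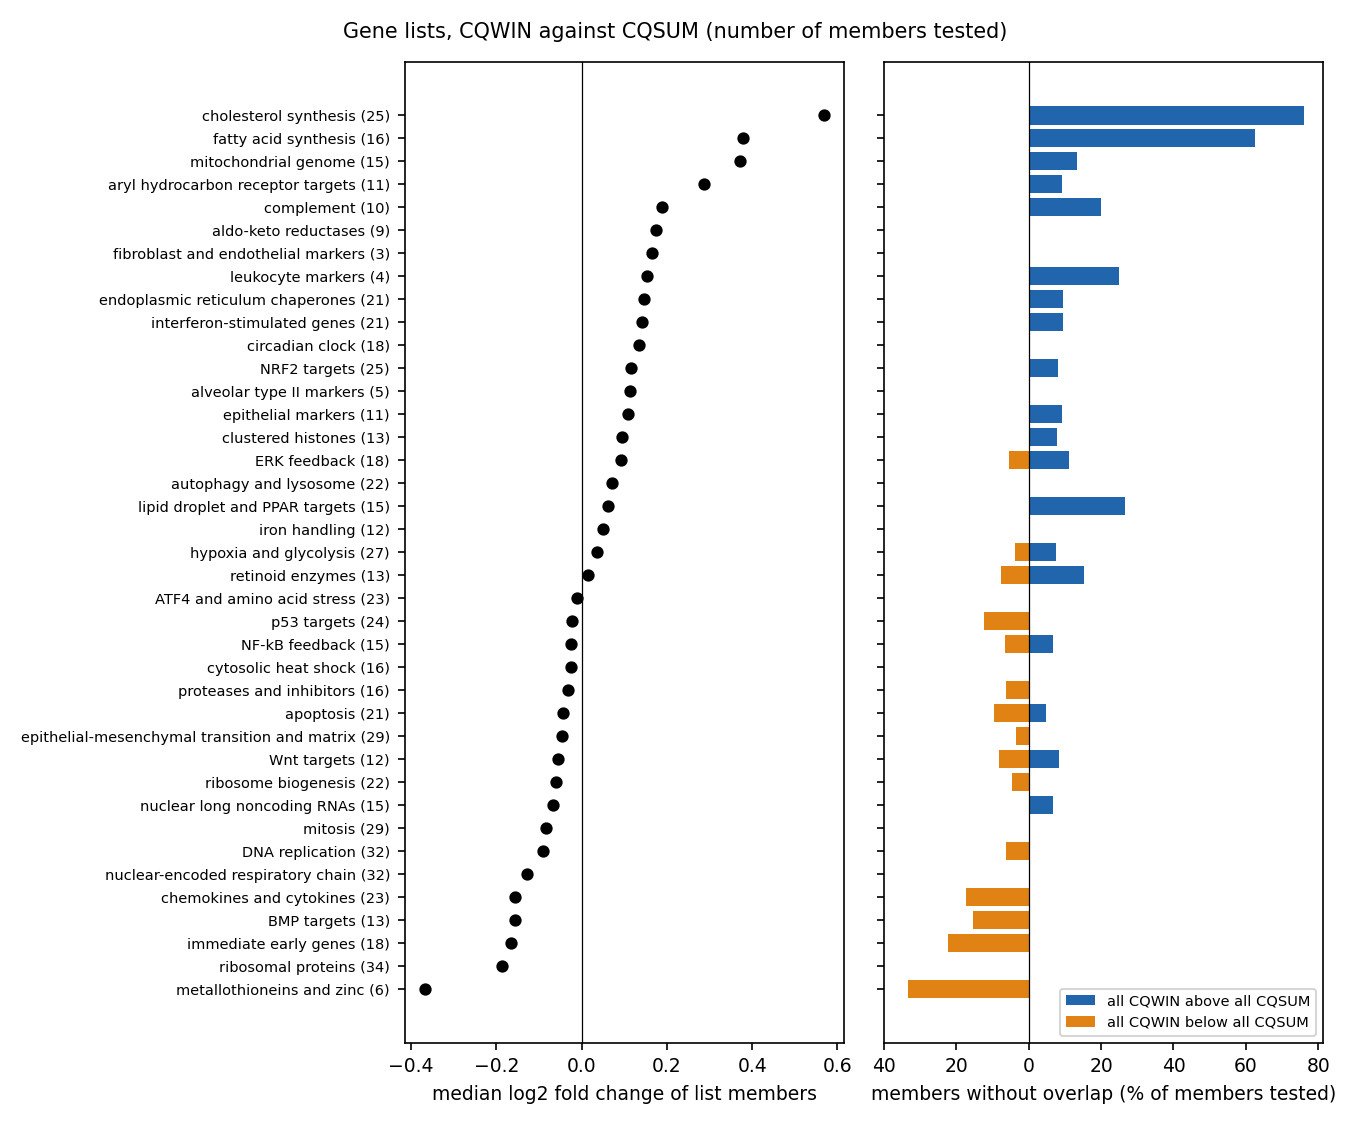
One panel gives the median log2 fold change of CQWIN over CQSUM for each of 39 gene lists, and the other the percentage of members tested whose CQWIN libraries are all above or all below the CQSUM libraries. The cholesterol list is at 0.57 with 76.0% above, and the fatty acid list at 0.38 with 62.5% above.

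The codes WIN and SUM also occur under the prefix CD, in libraries that the CQ comparison does not use. CDWIN differed from CDSUM in 1310 genes (8.42%), of which 1272 were higher. The GC slope, in log2 units per 10 percentage points, was 0.135 to 0.202 in CDSUM. It was −0.179, 0.125 and −0.225 in CDWIN libraries 1 to 3. With GC and length trends removed the count of called genes was 619, of which 433 were higher. With trends left in, the count was 554 without CDWIN 1, 578 without CDWIN 3, 857 without CDSUM 1, 663 without CDSUM 2 and 725 without CDSUM 3. None of the 3 genes called in CQ was among the 1310 genes, which is 0% of either list. SCD was at 278 ± 27.5 CPM in CDSUM and 351 ± 41.4 CPM in CDWIN (SD, n = 3), a log2 difference of 0.34 ± 0.17 SE, called in neither direction by edgeR (adjusted p = 0.293). FADS1 stood at 0.24 ± 0.14 there and ID3 at −0.31 ± 0.17. The cholesterol list had a median of 0.25 between CDWIN and CDSUM, with 6 members called higher, among them HMGCS1 at 0.97 ± 0.19 and MSMO1 at 0.94 ± 0.18.

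A test of the difference between the CD and the CQ contrast called 315 genes (2.02%), of which 312 were also called between CDWIN and CDSUM. With GC and length trends removed it called 93. It called 0 without CDSUM 2 or CDWIN 3, 24 without CDWIN 1 or CQWIN 3, 25 without CQSUM 3, 30 without CDSUM 3, 58 without CQSUM 1, 206 without CDSUM 1 and 883 without CDWIN 2. SCD was the only one of them called in CQ. Its CD difference minus its CQ difference was −0.95 ± 0.23 (log2, SE, edgeR adjusted p = 0.0419). The call did not hold without CDSUM 1 (0.0617), CDSUM 2 (0.106), CDSUM 3 (0.134), CDWIN 1 (0.100), CDWIN 3 (0.113), CQSUM 1 (0.0753), CQSUM 2 (0.0753), CQSUM 3 (0.100) or CQWIN 3 (0.0923). For ID3 the same test gave 0.86 ± 0.25 (edgeR adjusted p = 0.0817), and for FADS1 −0.64 ± 0.20 (edgeR adjusted p = 0.125). No member of the cholesterol list was called in it.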

How the data were processed

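RNA was sequenced in 15 libraries of A549 cells. The authors deposited 1 table with raw counts and FPKM per library, and with log2 fold changes and p-values of their comparisons. Its 16 columns of group means and its FPKM were not used in a test. The aligner, counter and strand setting are not given in the sources used here, and the labels' protocols name different library kits. Submitters' processing notes name mouse builds, but all 58735 gene identifiers and positions are those of human GENCODE 29.

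The deposited counts were filtered with filterByExpr of edgeR 4.0.16 (R 4.3.3), leaving 15565 of 29725 genes with a read. The removed genes held 0.0838% of reads. Counts were scaled by TMM and fitted in a quasi-likelihood model of all 15 libraries (10 residual degrees of freedom, common biological coefficient of variation 20.5%). P-values were Benjamini-Hochberg adjusted, with a threshold of 0.05. CPM of single genes are TMM scaled, and summed CPM of lists are scaled by total reads only. The SE was derived from the F statistic. The test of CQWIN against CQSUM was also run on simulated counts with known changes. Those counts held no GC or length trends between libraries, so that run cannot show how such trends affect calls.

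Members and gene lists were chosen with earlier results of these data known. The rule named called genes with at least 5 CPM and no overlap between libraries, up to 4 called members per list, 13 marker genes whatever their result, and the largest called differences between contrasts. Other genes were named after their values were seen, and a few genes are not reported here. Alternatives were DESeq2 1.42.0 and its size factors, other filters, a block by replicate number, GC and length trends removed (natural splines), a fit of the compared groups only, and each library left out.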

Additional observations from a re-analysis of the deposited data

Results flagged for a closer look

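The genes here were flagged because the test of the difference between the WIN over SUM contrast under CD and that under CQ passed (edgeR adjusted p below 0.05), as it did for 315 genes in all, for 93 with GC and length trends removed, and for 0 to 883 when a library was left out. The difference, CD minus CQ on the log2 scale, was 2.63 for VPS35, 2.43 for NUP107, 2.38 for SLC39A10, 2.31 for RARS and 2.31 for SF3B1. Between CQWIN and CQSUM these 5 genes stood at 0.10, −0.06, −0.17, 0.07 and 0.02, and none was called there. Between CDWIN and CDSUM they stood at 2.73, 2.37, 2.21, 2.38 and 2.33. The difference was −0.95 for MAP3K3 and −0.95 for SCD. MAP3K3 overlaps LIMD2 on the opposite strand. Among mitochondrial genes it was 0.85 for MT-ATP8, which overlaps MT-ATP6 on the same strand, and 1.10 for MT-RNR2. With GC and length trends removed these became 0.21 (edgeR adjusted p = 0.793) and 0.70 (edgeR adjusted p = 0.0943). No outlier test was run on groups of 3 libraries.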

How the results depend on the processing

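Calls between CQWIN and CQSUM numbered 3. They numbered 1 with DESeq2's size factors, 11 with DESeq2, 42 without a filter on low counts, 7 after removal of GC and length trends, 8 when the replicate block was added to that, 0 in a fit of the compared groups only, and 0 to 11 when each library was left out. Against DMSO, CQSUM calls numbered 2598 with trends removed, 2704 with the block added, and 3049 to 4520 when a library was left out. With DESeq2 they split into 2876 higher and 2561 lower. CQWIN calls numbered 2371 and 2377 with trends removed without and with the block, 2249 in the fit of both groups only, and 2511 to 6102 when a library was left out. CDWIN against CDSUM gave 619 (433 higher, 186 lower) and 627 with trends removed, and 554 to 1866 when a library was left out. The difference between contrasts gave 542 with DESeq2, 569 without a filter, 93 and 74 with trends removed, and 0 to 883 when a library was left out.

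Same-numbered CQSUM and CQWIN libraries did not deviate together (r = −0.414, −0.120 and 0.194), so numbers were not treated as pairs. With the replicate block 4 genes were called. Cholesterol members with all CQWIN above all CQSUM libraries numbered 16 to 23 over the alternatives, and fatty acid members 9 to 13, while 3.59% to 12.5% of all genes were above in this way. These counts were added after seeing the data. CDKN1A was 0.0041 with the filter of 5 CPM. When each library was left out, CDKN1A ranged from −0.0837 to 0.0351, NQO1 from −0.317 to 0.292, IL6 from −0.558 to 0.0041, IL1B from −0.208 to 0.421, CYP1B1 from −0.0482 to 0.542, AHRR from −0.183 to 0.745 and DDIT3 from −0.548 to 0.0860. The cause of these shifts was not tested.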

Other observations

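Some genes, picked after their values were seen, were high in CQWIN 1 and CQWIN 3 but not in CQWIN 2. FCGBP, a mucus protein gene, was at 52.2, 8.26 and 40.2 CPM in CQWIN libraries 1 to 3 and 9.02, 10.1 and 11.1 CPM in CQSUM. MUC5AC, a gel-forming mucin gene, was at 35.8, 11.3 and 43.7 CPM in CQWIN and 11.2, 12.2 and 15.3 CPM in CQSUM, and MUC5B, another one, at 25.8, 9.12 and 27.9 CPM against 9.02, 8.29 and 12.3 CPM. In DMSO, MUC5AC was at 43.7, 16.2 and 27.5 CPM, so it also varied there. AQP3, a water and glycerol channel gene, was at 61.01, 14.1 and 58.5 CPM against 21.7, 14.9 and 18.2 CPM, and RDH10, a retinol dehydrogenase gene that overlaps RPL7 on the opposite strand, at 48.99, 15.4 and 50.6 CPM against 16.04, 14.4 and 19.3 CPM. Of 13 retinoid list members tested, RDH10 among them, 7 had a difference above 0, and the median was 0.02. In FCGBP, MUC5AC, MUC5B, AQP3 and RDH10 alike, CQWIN 2 lay within or close to the CQSUM range.

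The opposite pattern was seen for TAGLN, an actin-binding protein gene, at 28.6, 83.1 and 25.97 CPM in CQWIN and 81.97, 108 and 83.7 CPM in CQSUM. IL11, a cytokine gene, was at 8.13, 23.6 and 9.77 CPM against 24.7, 24.9 and 28.7 CPM. With the filter on low counts, edgeR called none of these 7 genes with all libraries. With no such filter it called all 7, with adjusted p from 1.65e-11 for FCGBP to 0.00835 for IL11. With the filter, the edgeR adjusted p of FCGBP was 0.812. The fit with no filter also called XAGE1A (edgeR adjusted p = 5.25e-14), at 1.95, 21.0 and 1.90 CPM in CQSUM. Calls of that fit can thus rest on 1 or 2 libraries.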
